A study of Mus musculus with 8 samples.

Results

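The signal-transducing SMAD genes are Smad1, Smad5 and Smad9, whose proteins are phosphorylated by BMP receptors, Smad2 and Smad3, whose proteins are phosphorylated by TGF-beta and activin receptors, and Smad4, which encodes their common partner. All SMAD4 peaks with a summit inside or within 100 kb of one of these 6 gene bodies (RefSeq, mm10) were taken, which gave 20 of the 5466 deposited peaks. Of these, 15 of 4333 were in the stimulated list and 5 of 1133 in the unstimulated list. Receptor-phosphorylated SMADs bind SMAD4 and enter the nucleus, where the complexes bind short DNA elements and change transcription. In endothelium, BMP9 and BMP10 act through the receptor ALK1 and the co-receptor endoglin, and loss of SMAD4 in this pathway is a known cause of vascular malformations.

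The peaks came from chromatin of MS1, an established mouse endothelial line, so 1 cell line stands for endothelium. Serum was withdrawn from all cultures for 24 h, after which recombinant BMP9/10 at 1 ng/mL (stimulated) or new medium (unstimulated) was given. For each condition 2 libraries of SMAD4-immunoprecipitated DNA (IP) and 2 of input DNA were pooled by the authors into 1 peak call, so no value has a replicate error and the comparison of conditions has no replicate check. The titles of both stimulated IP libraries have Smad4KD where the unstimulated ones have Smad4IP, and the labels do not explain the KD. The stimulated list stands on 41044888 IP tags and the unstimulated list on 52971023, and the stimulated list is the longer one. Of 10 endothelial marker genes, 9 were nearest to a stimulated and 6 to an unstimulated peak within 100 kb, against 0 and 0 of 6 pancreatic islet genes, 2 and 1 of 5 fibroblast genes, 2 and 1 of 5 leukocyte genes and 12.2% and 3.79% of all genes. With any peak within 100 kb counted, the numbers were 9 and 7 endothelial, 1 and 0 islet, 3 and 1 fibroblast and 3 and 3 leukocyte genes, against 36.5% and 13.1% of all genes. A peak beside a gene is not a measure of its expression.

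Of the 6 genes, 5 had a stimulated peak within 100 kb, against 36.5% of 21887 protein-coding genes, and 3 had an unstimulated peak, against 13.1%. As the nearest protein-coding gene, the same numbers of members were hit (5 and 3), against 12.2% and 3.79% of all genes, and 12 of 15 stimulated and 4 of 5 unstimulated peaks had the member itself as nearest gene. Smad1 and Smad3, 2 of the 6, had a stimulated and no unstimulated peak in the window, against 23.6% of all genes. Inside the gene body a stimulated peak was found in 3 members (Smad1, Smad3 and Smad4), against 7.08% of all genes, and an unstimulated peak in 1 (Smad4), against 1.98%. A longer gene offers more room for a summit, and these 3 members are 61.0, 111.2 and 69.0 kb long. The shares given here are over genes of any length, so gene length was not taken into account. With the stimulated list shortened to its 1133 most significant peaks, 3 stimulated peaks at 3 genes (Smad3, Smad4 and the Smad5 window) were left, fewer than the 5 unstimulated ones. At equal list length the stimulated count was thus the lower one, but both counts are small and their difference was not tested. The farthest peak kept lay 68.0 kb from its gene and the closest one left out 117 kb, so the window of 100 kb fell in a gap.

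**Figure D1:**
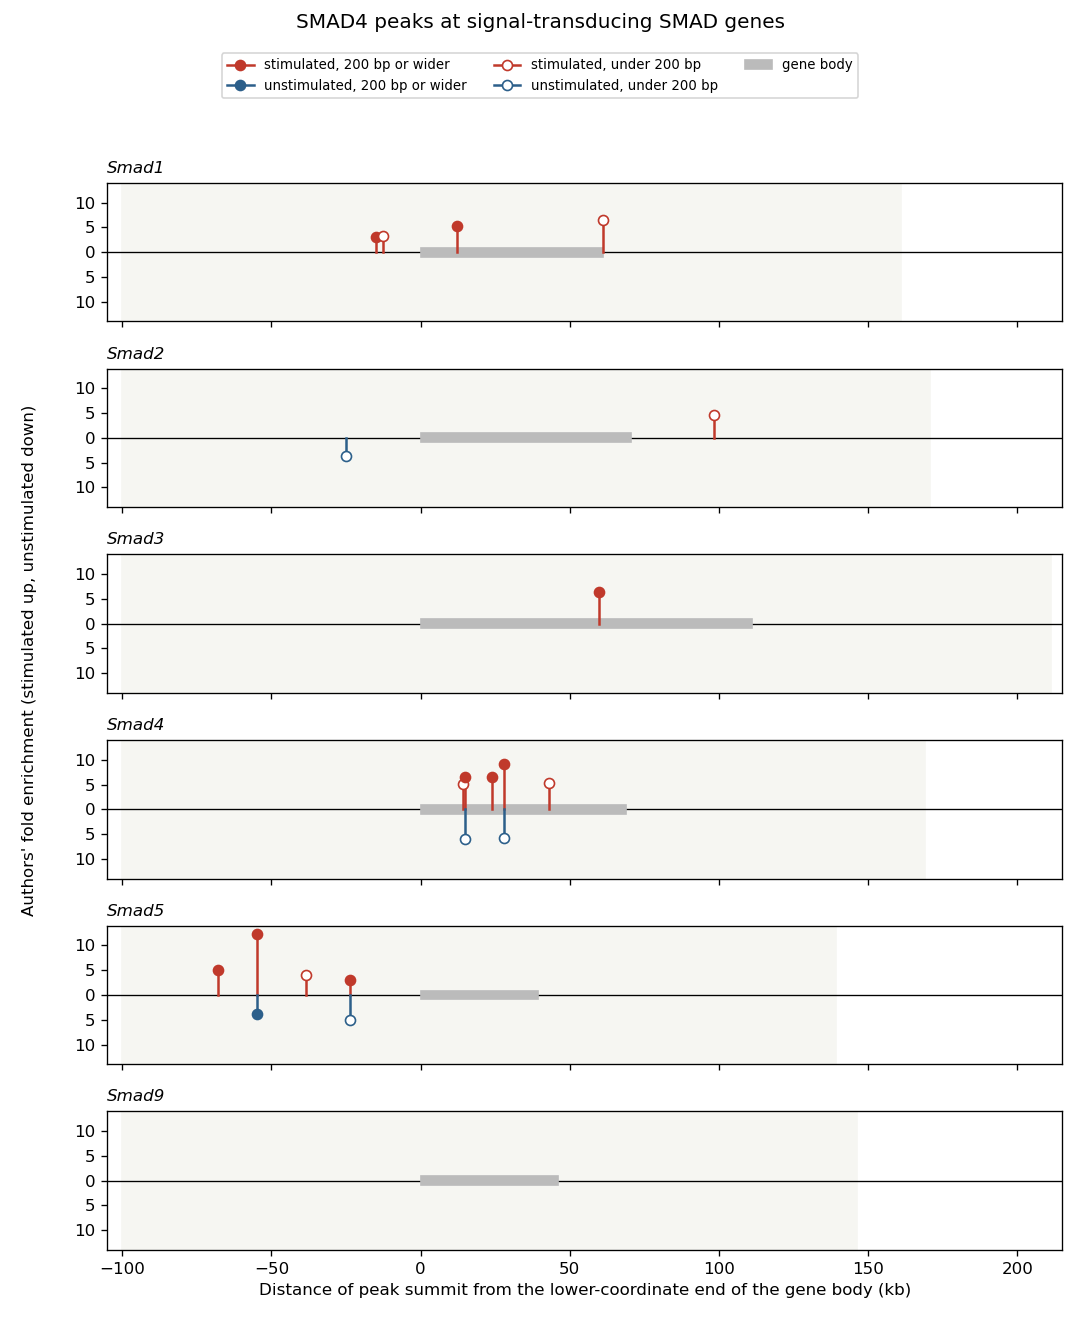
Each panel is 1 gene, with the gene body as a grey bar, the 100 kb on either side shaded and the distance of each summit from the lower-coordinate end of the gene in kb on the horizontal axis. Stems give the authors' fold enrichment, upward for the stimulated and downward for the unstimulated list, and open circles are peaks under 200 bp. Smad4 holds 5 stimulated and 2 unstimulated peaks inside its gene body, while Smad9 has none in either list.

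Among the BMP-activated members, Smad1 had a SMAD4 peak directly on its promoter in the stimulated list. The peak (chr8:79399428-79399544, 117 bp) ran from the annotated start site to 116 bases upstream of it. It is shown here because among Smad1, Smad3, Smad5 and Smad9, whose promoter windows were used, it was the one peak with its summit in such a window. A window runs from 250 bases before to 50 after the start. The RefSeq window of Smad1 (GRCm38.p6, chr8:79399379-79399678, minus strand, written 5′ to 3′) has the peak in capitals. The first windows of Smad5 (chr13:56702760-56703059, plus strand) and Smad9 (chr3:54755332-54755631, plus strand), which held no summit, are set beside it with matches to the searched motifs in capitals.
Smad1: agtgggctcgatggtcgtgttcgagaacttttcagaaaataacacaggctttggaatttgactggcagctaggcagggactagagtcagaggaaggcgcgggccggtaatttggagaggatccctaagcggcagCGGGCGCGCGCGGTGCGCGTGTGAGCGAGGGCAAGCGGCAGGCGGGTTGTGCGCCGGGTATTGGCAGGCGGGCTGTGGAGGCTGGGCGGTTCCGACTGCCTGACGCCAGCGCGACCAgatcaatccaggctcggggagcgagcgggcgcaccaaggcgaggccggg
Smad5: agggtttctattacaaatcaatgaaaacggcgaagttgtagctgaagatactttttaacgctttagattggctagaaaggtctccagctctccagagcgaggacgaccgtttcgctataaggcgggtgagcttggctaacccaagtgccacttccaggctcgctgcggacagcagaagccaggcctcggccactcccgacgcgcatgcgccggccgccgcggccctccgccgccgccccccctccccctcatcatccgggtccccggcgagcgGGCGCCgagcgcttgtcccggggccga
Smad9: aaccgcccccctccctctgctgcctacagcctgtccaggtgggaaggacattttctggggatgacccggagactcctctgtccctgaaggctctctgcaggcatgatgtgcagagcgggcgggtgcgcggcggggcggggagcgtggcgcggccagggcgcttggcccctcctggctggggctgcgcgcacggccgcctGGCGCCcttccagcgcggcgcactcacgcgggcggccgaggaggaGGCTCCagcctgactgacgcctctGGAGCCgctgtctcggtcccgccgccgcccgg

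These promoters were rich in G and C. The Smad1 window had 65% GC, the Smad5 window 63% and the Smad9 window 73.7%, against a median of 52.7% over 32851 windows of 27025 genes, and the Smad1 peak itself had 75.2%. The motifs searched on both strands were CAGAC, which holds the SMAD element AGAC (GTCT on the other strand), the palindrome GTCTAGAC of that element, and the GC-rich elements GGCGCC and GGAGCC, none of which overlapped another here. The Smad1 window held none of them, and neither did the Smad3 window. The shorter AGAC was not searched by itself, and the printed Smad5 and Smad9 windows hold it, or GTCT, outside the capitals. A window without a match is therefore not shown to lack every SMAD element. The Smad5 window printed held 1 GGCGCC, and the Smad9 window held 1 GGCGCC and 2 GGAGCC. A further Smad5 window, 42 bases beyond it, covered the same GGCGCC, and another, 658 bases beyond the first, held 1 CAGAC and 1 GGAGCC. Of all windows 49.6% hold CAGAC, 0.213% GTCTAGAC, 11.9% GGCGCC and 30.8% GGAGCC. A stimulated summit lay in a promoter window of 1.88% of the 27025 genes and an unstimulated summit in that of 0.374%.

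Smad1 had 4 stimulated and 0 unstimulated peaks within 100 kb, and the next unstimulated peak was 1178 kb away. The promoter peak had a fold enrichment of 6.58 over input, above 86.4% of the stimulated list. Its summit carried 24 IP tags, or 0.585 per 1000000 IP tags, over a local background of 0.0682. A broader peak inside the gene body (chr8:79350313-79350597, 285 bp), 49.0 kb from the start site, had a fold enrichment of 5.33 and a pileup of 0.755 per 1000000. Both of these peaks were thus more enriched than the list median of 4.56.

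The other Smad1 peaks lay beyond the end of the gene that is opposite to the start site. A peak at 12.7 kb (chr8:79325662-79325761) was 100 bp wide, the smallest width in the list, with a fold enrichment of 3.27. A peak at 15.0 kb (chr8:79323088-79323426, 339 bp) had 3.11. Their pileups, 0.853 and 0.658 per 1000000, were above that of the promoter peak, but their local backgrounds, 0.244 and 0.195, were also above the list median of 0.132. Within Smad1 the order of the peaks by fold enrichment therefore differs from their order by pileup.

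At 11 of the 15 stimulated peaks the unstimulated list had no overlapping peak, so no unstimulated pileup is known there. That was also so at 3252 of all 4333 stimulated peaks (75.1%), a share close to that at the members. A calculation was made of the IP tags that the unstimulated list would have needed at such a summit to reach its lowest called p-value, with the same local background per tag as in the stimulated list. At the Smad1 promoter 16 tags were needed, and the stimulated level scaled to the unstimulated IP tags was 31.0. In the Smad1 gene body the values were 22 and 40.0. The scaled level reached the tags needed at 11 of 11 member peaks. It did so at 100% of the 3245 stimulated peaks outside mitochondrial DNA that no unstimulated peak overlapped. This outcome was all but fixed in advance, because each peak was already called on fewer IP tags at the same background per tag. It therefore does not show a lower unstimulated level at any site. The calculation leaves out the caller's demand on width, and the share over the whole list sets nothing at these genes apart.

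Smad5, like Smad1 a transducer of BMP receptors, had 4 stimulated and 2 unstimulated peaks in its window and none inside its gene body. All 6 lay upstream of the start site, and 3 of the 4 stimulated ones were nearest to Tgfbi, which encodes a TGF-beta-induced extracellular matrix protein. One was inside Tgfbi (chr13:56634989-56635272, fold enrichment 5.10). The next was 54.9 kb from Smad5 and 8.76 kb from Tgfbi (chr13:56647948-56648377). The last of these was 38.5 kb from Smad5 and 25.2 kb from Tgfbi (chr13:56664507-56664646, 140 bp, fold enrichment 4.0). By fold enrichment, the 3 highest stimulated peaks of the Smad5 window were those nearest to Tgfbi, while the higher of the 2 unstimulated peaks was the one nearest to Smad5.

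The site nearest to Smad5 lay 23.6 kb upstream (chr13:56679197-56679457, 261 bp) and was called in both lists. Its pileup was 30 tags in the stimulated list, or 0.731 per 1000000, and 34 tags in the unstimulated list, or 0.642. The ratio per tag, stimulated over unstimulated, was 1.14 with a 95% counting interval of 0.673 to 1.92. The authors' fold enrichment ran the other way, with 3.10 in the stimulated and 5.0 in the unstimulated list, beside local backgrounds of 0.219 and 0.113 per 1000000. The direction at this site therefore depends on the measure. Fold enrichment was lower in the stimulated list at 186 of 1078 shared pairs (17.3%).

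The far site of the Smad5 window, nearest to Tgfbi, went the same way on both measures. Its pileup was 1.17 per 1000000 in the stimulated and 0.434 in the unstimulated list, a ratio of 2.69 (1.61 to 4.64), higher than at 99.8% of the shared pairs. Its fold enrichment was 12.2 in the stimulated and 3.81 in the unstimulated list.

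Smad9, the remaining BMP-activated member, had no peak within 100 kb in either list. The closest stimulated peak was 660.0 kb away, nearest to Dclk1, and the closest unstimulated one 1774 kb away. The lists hold called peaks alone, so binding below the caller's threshold at Smad9 is not known.

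Of the TGF-beta-activated members, Smad3 had 1 stimulated peak inside its gene body and no unstimulated peak within 100 kb. The peak (chr9:63706366-63706586, 221 bp) lay 51.5 kb from the start site, at 53.7% of the gene body counted from the lower-coordinate end. Its fold enrichment was 6.33, above 83.9% of the stimulated list, and its summit had 37 tags, or 0.901 per 1000000. This was the tallest peak inside any of the 6 genes. In the unstimulated list 22 tags were needed there, and the scaled stimulated level was 47.8, an outcome all but fixed in advance, as at Smad1. The next stimulated peak was 169.8 kb from Smad3 and nearest to its neighbour Smad6.

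Smad2 had 1 peak in each list, on opposite sides of the gene. The stimulated peak (chr18:76339343-76339479, 137 bp) lay 27.7 kb above the higher-coordinate end, with a fold enrichment of 4.60 and 0.536 tags per 1000000. The unstimulated peak (chr18:76215936-76216112, 177 bp) lay 25.0 kb below the lower-coordinate end, with a fold enrichment of 3.60 and 17 tags, or 0.321 per 1000000. It was 1 of 46 unstimulated peaks, of 1133 (4.06%), that no stimulated peak overlapped. In the authors' deposited table its −log10 q was 2.49, near their cutoff of q 0.01. Its level scaled to the stimulated IP tags, 13.2, was under the 14 tags that the stimulated list needed at that background. Its absence from the stimulated list therefore does not show a lower level there.

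Smad4 itself, the gene of the immunoprecipitated protein, held the densest set of peaks among the members. There were 5 stimulated and 2 unstimulated peaks inside its gene body of 69.0 kb and none elsewhere in its window. At least 5 stimulated peaks inside the gene body were found in 18 of 21887 genes (0.0822%), and in 6 of 5159 genes (0.116%) of 0.5 to 2 times the length of Smad4. At least 2 unstimulated peaks inside the gene body were found in 0.233% of all genes and in 0.33% of those of similar length. The cuts of 5 and 2 equal Smad4's own counts, and the 5 was taken after its value was seen. These shares therefore describe its place in the lists and are no test. With the stimulated list shortened to 1133 peaks, 1 peak was left in Smad4.

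**Figure D2:**
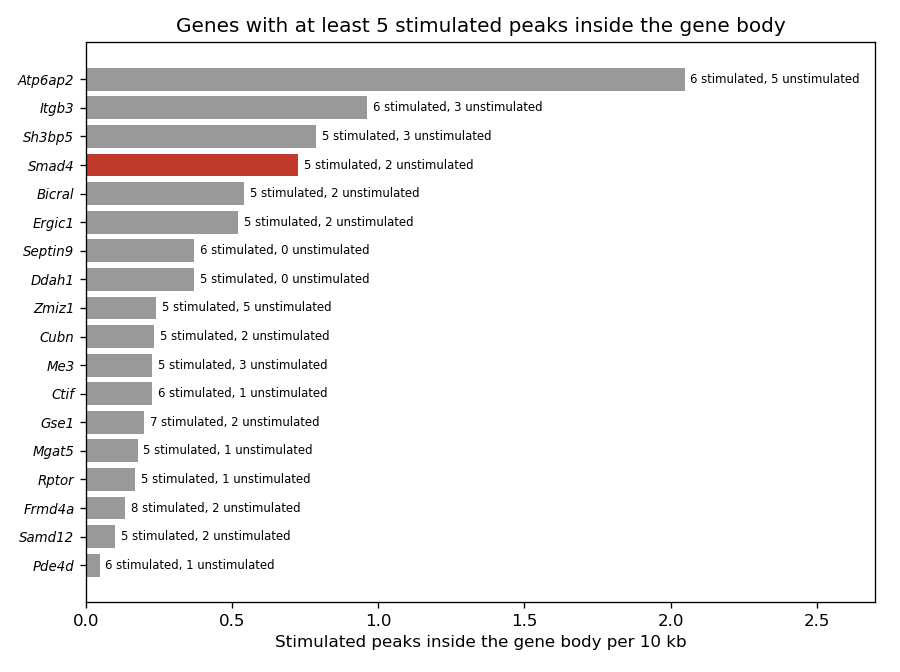
Horizontal bars give the number of stimulated SMAD4 peaks inside the gene body per 10 kb for the 18 genes with at least 5 such peaks, and the text at each bar gives the peaks in the stimulated and the unstimulated list. Smad4 (red) has the 4th highest density of the 18, at 0.725 per 10 kb, after Atp6ap2, Itgb3 and Sh3bp5.

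The 5 stimulated Smad4 peaks lay between 20.6% and 62.4% of the gene body, counted from its lower-coordinate end. No promoter window of Smad4 was used, so distances to its start site were not computed. The percentages are therefore not positions relative to the start site. From low to high coordinate they were chr18:73648948-73649085 (138 bp), chr18:73649701-73649927 (227 bp), chr18:73658594-73658900 (307 bp), chr18:73662611-73662838 (228 bp) and chr18:73677777-73677894 (118 bp). The summits lay at 20.6%, 21.7%, 34.6%, 40.5% and 62.4% of the gene body. The first pair of summits was 0.774 kb apart, and the other gaps were 8.87, 4.09 and 15.1 kb. Whether they fall in exons or introns was not analysed here, and whether the first pair is 1 site was not tested.

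The Smad4 peaks were low in tags but well enriched. From low to high coordinate the stimulated fold enrichments were 5.20, 6.50, 6.57, 9.08 and 5.32, all 5 above the list median of 4.56. The pileups were 25, 25, 20, 28 and 16 tags, or 0.609, 0.609, 0.487, 0.682 and 0.390 per 1000000, all 5 below the list median of 29 tags. The local background was at the genome-wide value of 0.0535 per 1000000, the lowest the caller uses, at 3 of the 5. That was so at 193 peaks of the stimulated list (4.46%). The strongest of the 5 ranked 130 of 4333 by fold enrichment, while 45.6% of the list had a lower pileup.

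Peaks under 200 bp made up 2 of the 5 stimulated Smad4 peaks and both unstimulated ones. In the whole lists such narrow peaks were 47.5% of the stimulated (95% exact binomial interval 46.0 to 49.0) and 57.9% of the unstimulated peaks (55.0 to 60.8), so narrow peaks were common everywhere. At least 2 unstimulated narrow peaks inside the gene body were found in 0.064% of all genes, but the cut of 2 is Smad4's own count, so this is no test. The stimulated narrow peaks, the outermost of the 5, had no unstimulated counterpart. The same was so at 75.1% of all stimulated peaks, so this does not set them apart. The unstimulated narrow peaks (chr18:73649774-73649910, 137 bp, and chr18:73662693-73662815, 123 bp) overlapped stimulated peaks of 227 and 228 bp. Of the 4 shared sites near members, 3 were under 200 bp in the unstimulated and at least 200 bp in the stimulated list, against 43.7% of all shared pairs. The stimulated peak was the wider one at 4 of 4, against 92% of all shared pairs.

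Raw pileups at the shared Smad4 sites were close in the lists, while pileups per IP tag were higher in the stimulated list. The site at the lower coordinate had 25 tags in the stimulated list (0.609 per 1000000) and 22 tags in the unstimulated list (0.415 per 1000000). The ratio per tag was 1.47, with a counting interval of 0.794 to 2.73. The site at the higher coordinate had 28 tags in the stimulated list (0.682 per 1000000) and 28 tags in the unstimulated list (0.529 per 1000000). The ratio there was 1.29 (0.737 to 2.26). Both intervals include 1 and both include 1.47, the median ratio of all 1078 shared pairs, so these counts cannot show a change at Smad4 nor set it apart from other sites. Summits differed by 35 and 3 bp between the lists, against a median of 31 bp over all pairs.

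**Figure D3:**
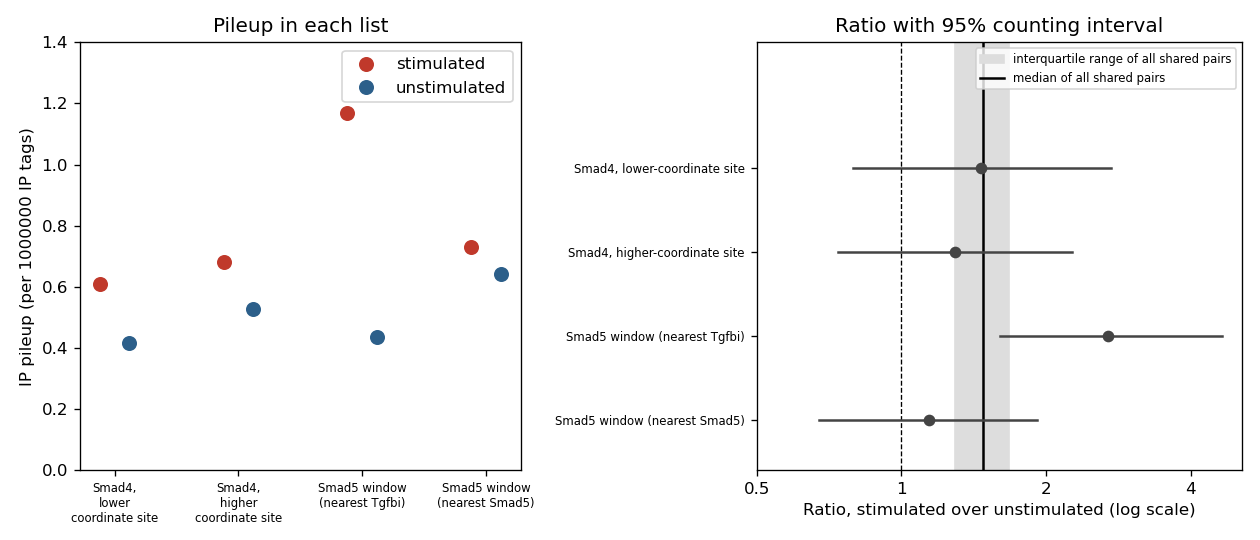
On the left, the IP pileup at the summit per 1000000 IP tags is plotted for the 4 sites near members that were called in both lists, stimulated beside unstimulated. On the right, their ratio with its 95% counting interval is set against the median (solid line) and interquartile range (grey) of 1078 shared pairs on a log axis, with a dashed line at 1. The interval lies above 1 at the site nearest to Tgfbi alone.

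Over the 4 shared sites the ratio was above 1 at each, with a median of 1.38 and a range of 1.14 to 2.69, and the interval lay above 1 at 1 of them. Among all shared pairs the interval lay above 1 at 36.6%, and the ratio was above 1 at 1061 of 1078. Divided by the median of all pairs, the median of the 4 was 0.935. Of the 4 ratios, 3 lay below the median of all pairs and 1, at the site nearest to Tgfbi, above it. The ratio at the site nearest to Smad5 was higher than at 7.98% of the pairs.

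In the stimulated list the broader member peaks had the higher medians. The 6 narrow ones had a median of 0.573 tags per 1000000 and the 9 broader ones 0.682, against 0.585 and 0.853 over all narrow and broader peaks of the list. Median fold enrichments were 4.90 for the narrow and 6.33 for the broader member peaks, against 4.17 and 5.0 over the list. In the unstimulated list the 4 narrow member peaks had medians of 0.472 tags per 1000000 and a fold enrichment of 5.40, and the 1 broader peak, nearest to Tgfbi, had the lower values of 0.434 and 3.81. These differences were not tested. With the limit at 250 bp in place of 200 bp, the broader member peaks no longer had the higher median (ratio 0.981, against 1.29 at 200 bp). The widths nearest to the limit of 200 bp were 177 bp below it, at Smad2 in the unstimulated list, and 211 bp above it, in the Smad5 window in the unstimulated list. Local backgrounds at member peaks had a median of 0.0975 per 1000000 in the stimulated list (0.132 over all its peaks) and 0.0755 in the unstimulated list (0.155 over all).

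**Figure D4:**
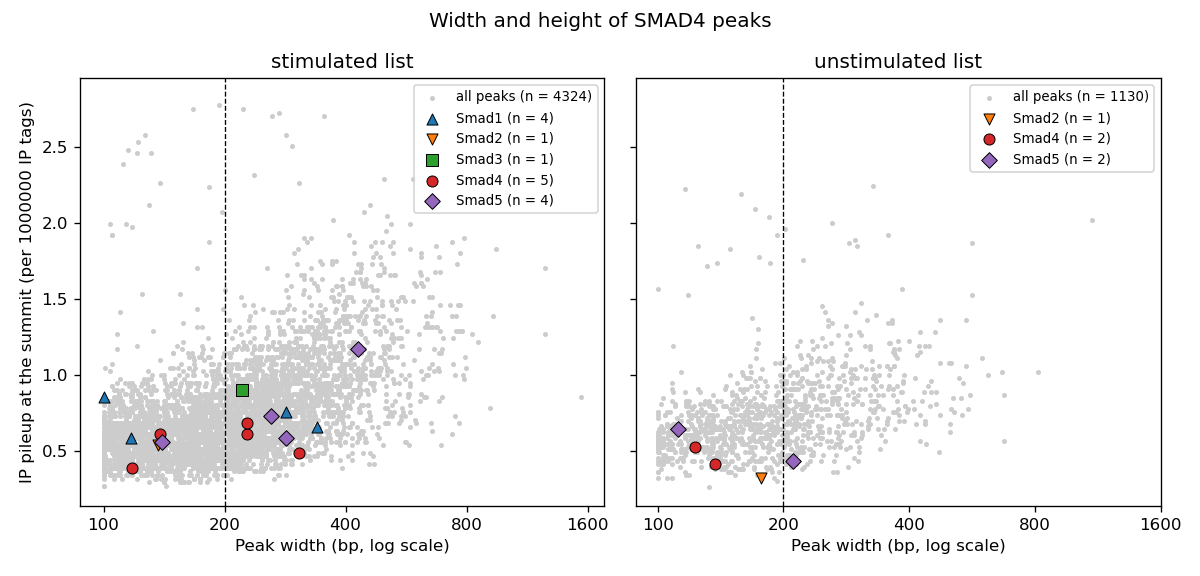
Peak width in bp (log axis) is plotted against IP pileup per 1000000 IP tags for the stimulated list (left) and the unstimulated list (right), with all peaks in grey, member peaks by gene and the 200 bp limit dashed. The Smad4 peaks lie between 0.390 and 0.682 in the stimulated and between 0.415 and 0.529 in the unstimulated list, in the lower part of the cloud and apart from the tall narrow peaks at its top left.

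Genes were also ranked by the number of stimulated narrow peaks inside the gene body. Ties were ordered by the density of these peaks per 10 kb of gene body. The first 10 genes were Pde4d (6), Atp6ap2, Zmiz1 and Frmd4a (5 each), Unc5b and Bcor (4 each), and Kdm6b, Igfbp7, Sh3bp5 and Elk3, the densest of the 18 genes with 3 each. Smad4, with 2, had 24 genes above it and shared its count with 90 others. At least 2 such peaks were found in 0.525% of all genes and in 1.01% of those of similar length. Of the 10, Unc5b, which encodes a netrin receptor, was closest to Smad4 in gene length (69.0 kb) and held 4 stimulated peaks and 1 unstimulated peak of any width. Sh3bp5 (63.5 kb) held 5 and 3. In the stimulated list Smad4 was thus 1 of 115 genes with at least 2 narrow peaks and 1 of 18 with at least 5 peaks of any width inside the gene body. In the unstimulated list it was 1 of 14 genes with at least 2 narrow peaks. All of these cuts equal Smad4's own counts, so the numbers give its place in the lists and are no test.

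The inhibitory SMADs, which block receptor signalling and are known BMP target genes, had more stimulated peaks around them than any signal-transducing member. Within 100 kb there were 11 stimulated and 7 unstimulated peaks at Smad6, and 10 and 2 at Smad7, against 5 and 2 at Smad4. Inside the gene body the order was different, with 1 stimulated and 1 unstimulated peak in Smad6 and 2 and 1 in Smad7, against 5 and 2 in Smad4. The highest fold enrichment with the gene as nearest was 13.0 at Smad6 and 10.0 at Smad7 in the stimulated list, against 9.08 at Smad4. These counts have no replicate error and were not tested.

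Other genes of the pathway are the receptors and the repressors, partners and ubiquitin ligases of SMADs. Of all genes 12.2% were nearest to a stimulated and 3.79% to an unstimulated peak within 100 kb. Of 11 BMP and TGF-beta receptor genes, 2 were nearest to a stimulated and 1 to an unstimulated peak. These were Eng, the co-receptor endoglin, in both lists, and Bmpr2, the type II BMP receptor (fold enrichment 4.60), in the stimulated list. Of 14 repressors, partners and ubiquitin ligases of SMADs, 8 were nearest to a stimulated and 4 to an unstimulated peak. With any peak within 100 kb counted, whichever gene was nearest, the numbers were 10 and 8 in this group and 3 and 1 of the receptors, against 36.5% and 13.1% of all genes. Ski, Skil and Pmepa1, which restrain SMAD signalling, and Zeb1, a SMAD-binding transcription factor, had peaks in both lists. Zfyve9, which presents SMADs to receptors (5.71), Tgif1, a corepressor (4.17), Ppm1a, a phosphatase (3.30), and Smurf1, a ubiquitin ligase (3.24), were nearest to stimulated peaks alone. An unstimulated peak nearest to another gene may still lie within 100 kb of them. Over all genes, 2679 were nearest to a stimulated and 830 to an unstimulated peak, so being nearest to stimulated peaks alone was the common case. The median number of stimulated peaks per gene was 1 among these 14 genes and 1 among the signal-transducing SMADs, 7 at the inhibitory SMADs and 0 at the receptors.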

How the data were processed

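The authors deposited 1 list of narrow peaks per condition, called with MACS2 2.1.0.20140616 on merged IP over merged input libraries, with 1 tag kept per position, 100 bp extension and a q cutoff of 0.01, per the file headers. Band width was 200 (stimulated) and 300 (unstimulated), per the file headers. Build mm10 and the tool HOMER are named in the submitters' processing notes, which name no aligner. Pileup is the authors' unscaled coverage signal, the fold enrichment is their ratio over local background, with 1 added to both, and the −log10 p and −log10 q values compare IP with input, all as deposited.

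Each pileup was divided by its list's IP tags, and inverting the fold enrichment gave the local background. Peaks sharing at least 1 bp were paired by closest summits, each used once, which gave 1078 pairs outside mitochondrial DNA. Intervals are exact binomial at 95% and cover counting error only. Genes were 21887 RefSeq protein-coding genes (GRCm38.p6). The code was tested on simulated data (Python 3.11.15, SciPy 1.17.1). Members and gene lists were chosen with earlier results of these data known. All members, all their peaks, the pathway genes with a peak and the 10 genes with most stimulated narrow peaks (ties by density) were named by rule, and the 18 genes of the density plot were chosen after Smad4's count was seen. Alternatives changed the window, peak filter, list length, overlap, scaling and width limit.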

Additional observations from a re-analysis of the deposited data

How the results depend on the processing

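With a window of 10 kb, 8 stimulated peaks at 3 genes and 2 unstimulated peaks at 1 gene were counted. A −log10 q minimum of 10 left 6 stimulated and 2 unstimulated peaks, and without peaks under 200 bp 9 stimulated peaks and 1 unstimulated peak at 1 gene were left. The shortened stimulated list left 3 peaks at 3 genes. These settings remove peaks by construction. With an overlap of at least 50% of both peaks, 2 of the 4 shared sites were counted. Narrow peaks inside Smad4 numbered 4 in the stimulated list with the limit at 250 bp, and 0 with the q minimum or the shortened list. In the unstimulated list the q minimum left 1. The ratio of median fold enrichment, broader over narrow, was 0.981 with the limit at 250 bp. Divided by the median of all pairs, the median pileup ratio of the shared sites was 0.935. With fold enrichment in place of pileup, the site nearest to Smad5 had a ratio of 0.62, outside its counting interval. In all, 35 of 52 values stayed within 1.5 times the main value or inside its interval. Leaving out the division by IP tags, or dividing by the median of all pairs, changes each ratio by a constant under 1.5. Those values were bound to be counted among the 35 and are no sign of stability. No paired analysis was possible because the libraries of each condition were merged before deposit, and for the same reason no replicate could be left out. Pileups of 16 to 48 tags limit what a ratio can show.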
